A study of Mus musculus with 4 samples.

Results

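Guanylate-binding proteins and immunity-related GTPases are large GTPases that cells make in quantity after interferon. Both families act inside the cell, where they assemble on vacuoles and membranes that hold bacteria or parasites and help to break them open. Their promoters are known for short interferon response motifs, among them the GAS motif and the interferon-stimulated response element (ISRE). The genes described here are 7 guanylate-binding proteins (Gbp2, Gbp3, Gbp4, Gbp5, Gbp7, Gbp8 and Gbp9) and 2 immunity-related GTPases (Irgm1 and Iigp1). They were chosen by symbol, and all 9 were found among the 32285 genes of the files.

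The data were 4 droplet single-cell RNA libraries from female C57/Bl6 mice aged 6 to 8 weeks, 1 library per group. In the metastasis arm mice received 800000 B16F10 melanoma cells into the spleen on day 0. In the sham arm they received saline by the same route. Every mouse of both arms then lost its spleen and also carried a subcutaneous B16F10 tumour, begun with 250000 cells, so the sham arm was not free of tumour. Lung and blood were taken on day 7, which gave 4 groups: metastasis and sham for the lung, then metastasis and sham for the blood. Lung cells were filtered and cleared of dead cells on columns, and CD45+ blood cells came from density centrifugation. The design text also names kits that enrich CD45+ cells without saying for which tissue, so whether lung was enriched for CD45+ cells, a step that would remove most endothelial cells and fibroblasts, is unclear. The sources used here do not give the number of mice in a library.

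With 1 library per group there was no replicate and no test. Every interval is an exact 95% interval that covers counting error only, so a difference between arms is a difference between these libraries. Levels are unique molecular identifiers (UMIs) of a gene per 1000000 UMIs without haemoglobin, written CPM, from the counts of all cells of 1 class in 1 library added up. Such sums do not correct for transcript length, so they are compared between cell classes for 1 gene and not between genes. The libraries held 127281060, 132540945, 112079231 and 116022872 UMIs, in that order. Haemoglobin took 78.1%, 65.7%, 78.6% and 43.7% of these UMIs. Cells were placed in a class when they had at least 3 detected markers of it and at most 50% as many of any other class. Of 6791, 11470, 5068 and 11568 gated cells, 90.2%, 95.1%, 89.2% and 95.5% fell in a class. In every class of 30 or more cells the median cell had 4 to 11 of its own markers, and in no such class was a second list above a median of 4. Lung epithelial cells had the fewest, a median of 4 in both arms, and 32.0% of them in each arm sat at the minimum of 3. Pairs of libraries shared 34 to 52 cell barcodes, at most 0.477% of the smaller one.

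Promoter windows of 5 of the genes, taken from the RefSeq table for GRCm38.p6, were searched. No window of Gbp4, Gbp8, Gbp9 or Iigp1 was searched. The stretches around their ISRE core are shown because each of these genes has that motif before its RefSeq start. The searched cores were GAAANNGAA for ISRE, which reads TTCNNTTTC on the other strand, and the palindrome TTCNNNGAA for GAS, on both strands of the 250 bases before the start. Each line gives 30 bases, 5′ to 3′ on the strand of the gene, and capitals mark the ISRE match or overlapping matches. The stretches lie at chr3:142620594-142620623 (+) for Gbp2, chr3:142559992-142560021 (+) for Gbp3, chr3:142496759-142496788 (+) for Gbp5, chr3:142530273-142530302 (+) for Gbp7 and chr11:48871429-48871458 (-) for Irgm1.
Gbp2: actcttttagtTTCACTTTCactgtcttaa
Gbp3: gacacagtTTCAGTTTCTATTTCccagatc
Gbp5: acttgtgtagtTTCAATTTCagtttagaga
Gbp7: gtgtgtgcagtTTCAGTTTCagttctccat
Irgm1: tgtttcaaGAAATAGAAACCGAAactgatt

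All 5 of these genes held an ISRE core in a window, while 7.13% of the 32851 RefSeq windows of that length did. Gbp3 and Irgm1 held 2 overlapping matches each, and the second window of Gbp3 held none. A GAS core was present upstream of the RefSeq starts of Gbp5 and Gbp7, with 2 matches each, while 7.02% of all windows held it. Among 6 related genes with a window, 5 held the ISRE core and 4 the GAS core. A match is a run of letters and not a measured binding site.

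**Figure D1:**
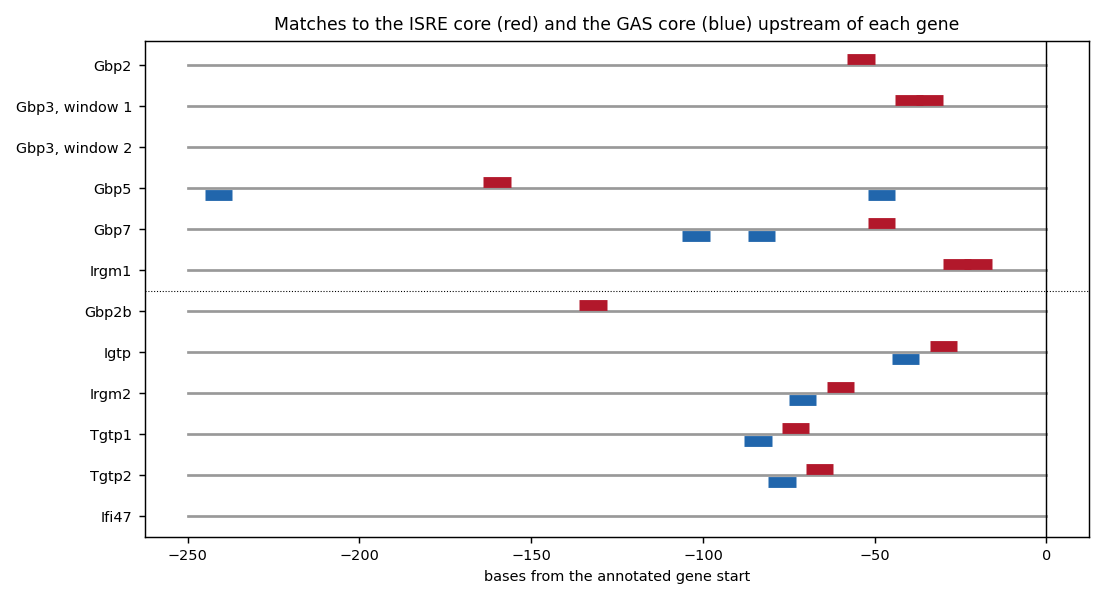
Positions of matches to the ISRE core (red) and the GAS core (blue) in the 250 bases before the RefSeq start of each gene (x axis, bases from the start). The dotted line separates the 5 described genes above, Gbp3 with 2 windows, from 6 related GTPase genes below. The ISRE matches of Gbp2, Gbp3, Gbp7 and Irgm1 lie within the last 58 bases, and that of Gbp5 begins 164 bases before the start.

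Gbp5, Gbp7, Gbp3 and Gbp2 lie in 1 cluster, with the related gene Gbp2b between Gbp3 and Gbp2, at chr3:142493978-142638008 (GRCm38), and Gbp8, Gbp9 and Gbp4 lie in a second at chr5:105014150-105139586. Irgm1 lies at chr11:48861968-48871683. These spans come from another annotation (GENCODE), and the starts differ from those of the RefSeq windows. The marked ISRE matches of Gbp2, Gbp5 and Irgm1 lie before the RefSeq start but inside these spans. In the annotation the spans of Gbp4, Gbp8 and Gbp9 overlap on 1 strand, and genes within a cluster are close copies. How reads shared among them were counted cannot be read from the files, so the split between neighbours is uncertain.

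The 9 genes were spread unevenly over the cell classes. In the lung the highest summed level was in endothelial cells, at 1364 CPM (987 to 1837) in the 16 endothelial cells of the metastasis library and 1468 CPM (1214 to 1759) in the 54 of the sham library. Fibroblasts followed, at 339 CPM (217 to 504) in 20 cells from metastasis lung and 386 CPM (287 to 507) in 31 cells from sham lung. Few cells carried these sums. The 5% of sham lung cells with the most UMIs held 62.7% of them in fibroblasts and 49.6% in endothelial cells. The intervals do not cover this spread between cells. Among lung leukocyte classes with 30 or more cells in both libraries, NK cells and T cells were highest. B cells, non-classical monocytes and neutrophils were lower. Classical monocytes, of which sham lung held 26, were at 178 CPM (135 to 230) in the 68 of metastasis lung. That interval overlapped the one of CD4 T cells there, at 202 CPM (171 to 238). Epithelial cells were near 0, with 4.42 CPM in metastasis and 3.38 CPM in sham from 3 UMIs and 1 UMI, and blood platelets had 20.1 CPM in metastasis and 16.3 CPM in sham from 2 and 3 UMIs.

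**Figure D2:**
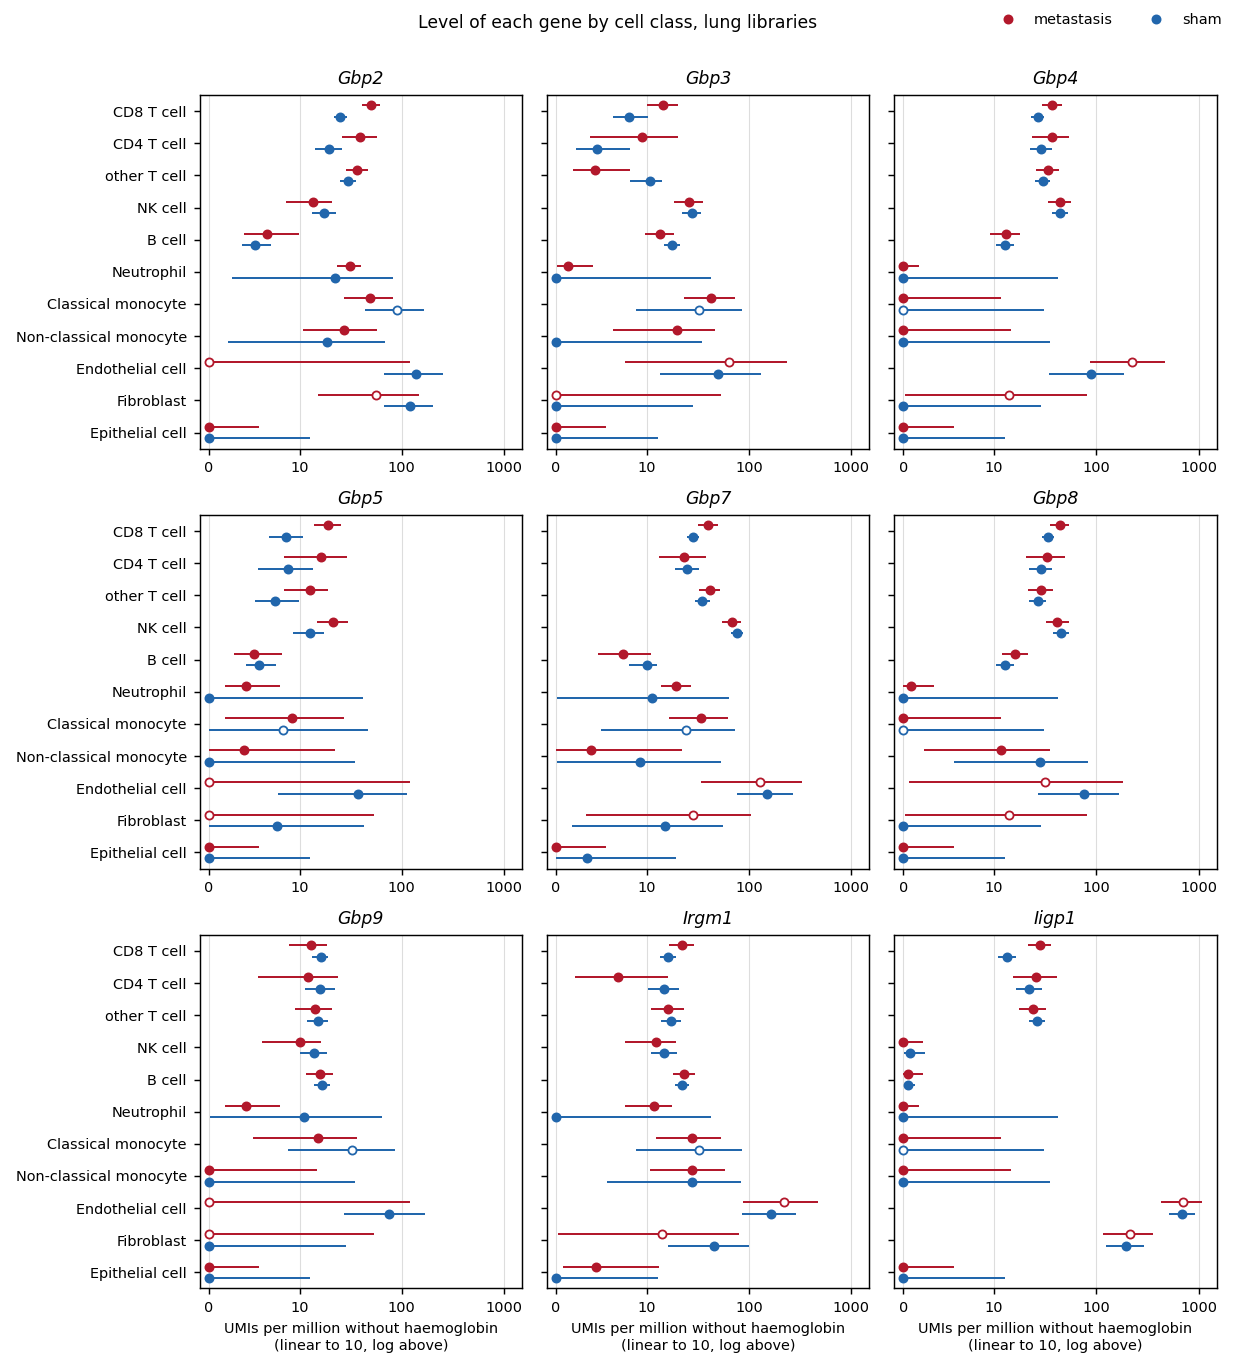
Level of each of the 9 genes in lung cell classes (rows), in CPM without haemoglobin (x axis, linear to 10 and logarithmic above), with the metastasis library in red above the sham library in blue. Points are class sums, bars are exact 95% counting intervals, and open points are classes with fewer than 30 cells. Iigp1 is highest in endothelial cells, at 698 CPM in metastasis and 690 CPM in sham, and Gbp4 is at 0 in neutrophils of both arms.

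Iigp1, an effector GTPase that loads onto parasite vacuoles, had the sharpest distribution. In endothelial cells it was at 698 CPM (437 to 1056) in metastasis and 690 CPM (520 to 898) in sham. In fibroblasts it was at 212 CPM (119 to 349) in metastasis and 197 CPM (128 to 288) in sham. The endothelial reads came from few cells: 3 of 16 cells in metastasis and 12 of 54 cells in sham had an Iigp1 UMI, 1 metastasis cell held 13 of the 22 UMIs, and 1 sham cell held 22 of the 55. In fibroblasts 6 of 20 cells in metastasis and 4 of 31 in sham had one, and 1 sham fibroblast held 21 of the 26 UMIs. The intervals take UMIs as independent and so do not cover this spread between cells. T cells followed. In CD4 T cells of the lung it was at 25.8 CPM in metastasis and 22.1 CPM in sham. In B cells it stood at 0.587 CPM and 0.518 CPM in metastasis and sham lung, and in neutrophils at 0 in all 4 libraries. A count of 0 in the 1994 neutrophils of metastasis blood allows up to 0.662 CPM by the exact interval, and in the 387 of sham blood up to 3.10 CPM.

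Among leukocytes, Gbp4 and Gbp8 of the chromosome 5 cluster were highest in T cells and NK cells. Gbp4 was at 43.9 CPM in lung NK cells in metastasis and 44.3 CPM in sham, and at 36.8 CPM in lung CD8 T cells in metastasis and 26.8 CPM in sham. In lung B cells Gbp4 stood at 13.2 CPM in metastasis and 12.7 CPM in sham. In neutrophils no Gbp4 UMI was seen in any library, and blood classical monocytes had 0 in metastasis and 0.789 CPM, a single UMI, in sham. Gbp8 was at 41.7 CPM in lung NK cells in metastasis and 45.1 CPM in sham, and in blood neutrophils at 1.44 CPM in metastasis and 5.04 CPM in sham, on 8 and 6 UMIs. Over the 36 sums of class and library with 30 or more cells, Gbp4 and Gbp8 had the highest correlation of any pair of the 9 genes (Pearson r = 0.89 on log2 of CPM plus 5). The sums share libraries and depth, and the annotated spans of Gbp4 and Gbp8 overlap. The lowest pair was Gbp3 with Iigp1 (r = 0.11).

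Gbp9, the third gene of that cluster, was spread more evenly over lymphocytes. It stood at 20.6 CPM (16.5 to 25.4) in blood B cells in metastasis and 14.6 CPM (13.25 to 15.95) in sham, and at 12.9 CPM in lung CD8 T cells in metastasis and 16.1 CPM in sham. In lung B cells it was at 15.9 CPM in metastasis and 16.5 CPM in sham, and the intervals of B cells and CD8 T cells overlapped in both arms. Gbp4 and Gbp8, by contrast, were lower in lung B cells than in lung CD8 T cells and NK cells, with intervals that did not overlap.

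Gbp7, which has been tied to the phagocyte oxidase and to autophagy, was highest in NK cells among leukocyte classes with 30 or more cells. It was at 91.0 CPM in metastasis and 94.4 CPM in sham in blood NK cells, and at 67.6 CPM in metastasis and 76.9 CPM in sham in lung NK cells. Blood neutrophils had 53.8 CPM (47.9 to 60.3) in metastasis and 29.4 CPM (20.5 to 40.9) in sham. B cells were at 17.4 CPM or lower in all 4 libraries. Non-classical monocytes stood at 9.28 CPM or lower, on 1 or 2 UMIs where any were seen.

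Gbp2, which is recruited to pathogen vacuoles, and Gbp3 had different orders. Among leukocyte classes with 30 or more cells, Gbp2 was lowest in B cells (5.08 to 9.38 CPM over the 4 libraries) and was at 0 in epithelial cells and platelets. In endothelial cells it had no UMI in the 16 cells of metastasis lung, which allows up to 117 CPM by the exact interval, and 138 CPM (68.9 to 247) in sham lung. Gbp3 was at 46.6 CPM (35.2 to 60.5) in blood classical monocytes in metastasis and 26.8 CPM (18.6 to 37.5) in sham. Neutrophils had at most 2.69 CPM of Gbp3. Gbp5, which promotes inflammasome assembly, was at 21.4 CPM in lung NK cells in metastasis and 12.8 CPM in sham, and at most 4.08 CPM in neutrophils.

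Irgm1, a regulatory GTPase that keeps the effector GTPases off host membranes, was highest among leukocytes in blood classical monocytes, at 60.7 CPM (47.6 to 76.3) in metastasis and 60.8 CPM (48.0 to 75.9) in sham. B cells of all 4 libraries lay between 21.8 and 23.2 CPM. Irgm1 was at 222 CPM in endothelial cells of metastasis lung and 163 CPM in those of sham lung, from 7 and 13 UMIs.

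**Figure D3:**
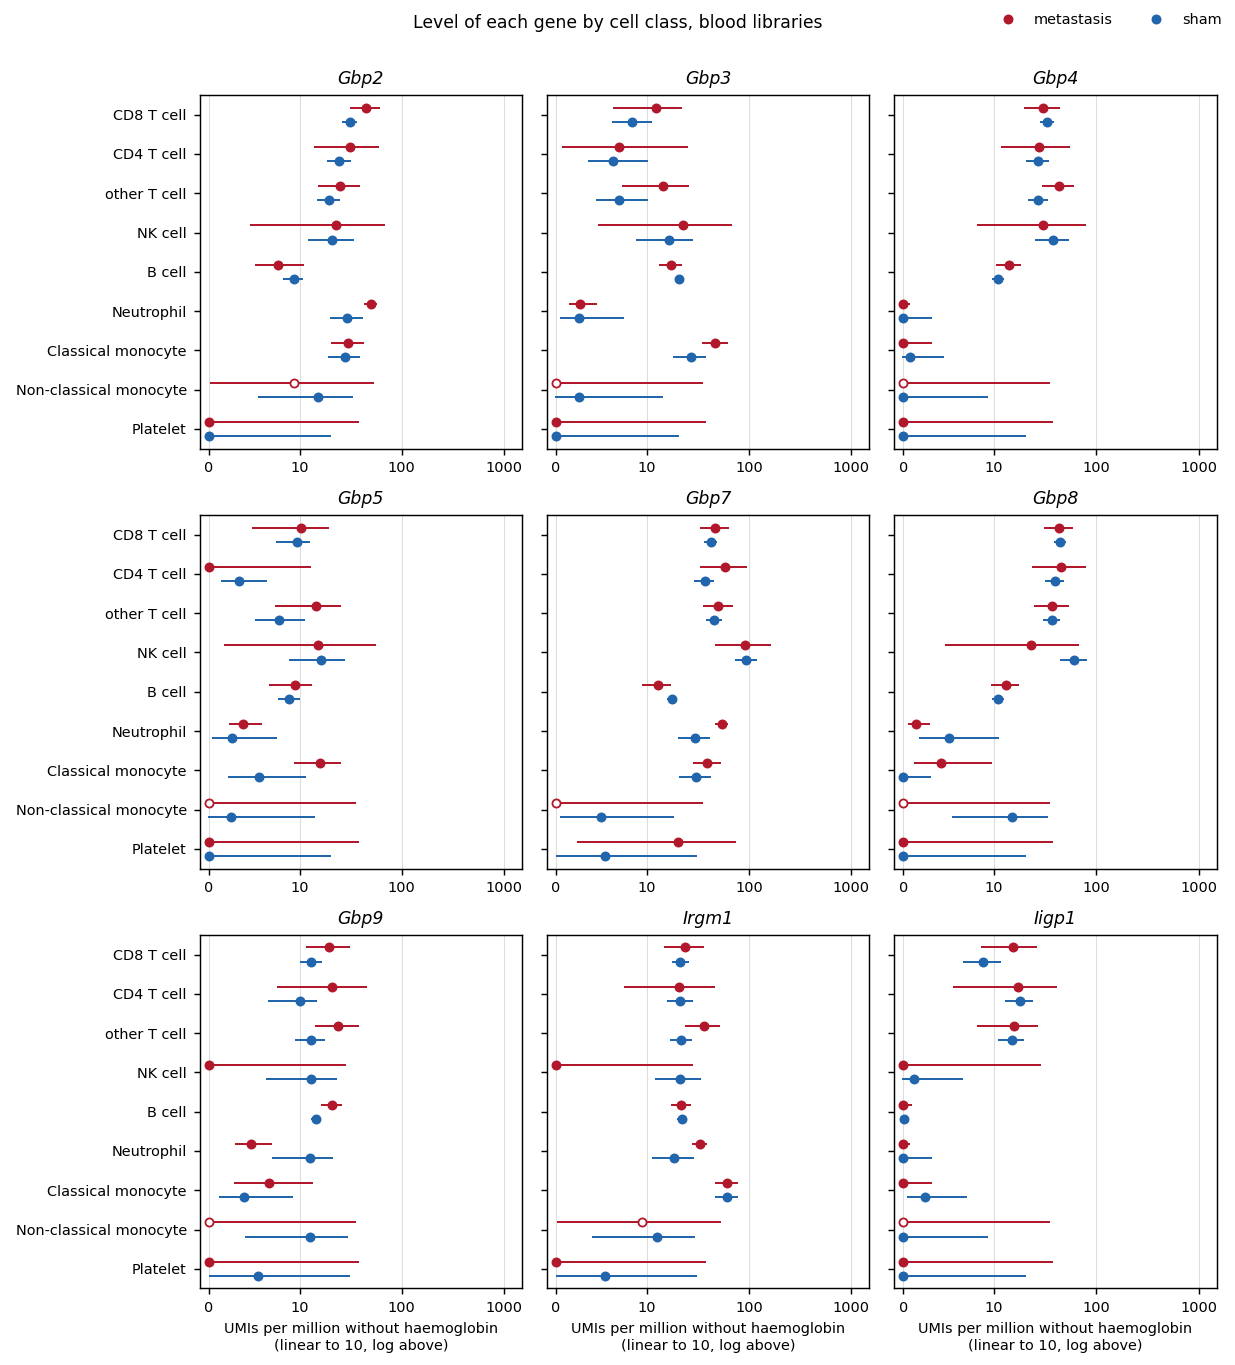
Level of each of the 9 genes in blood cell classes (rows), in CPM without haemoglobin (x axis, linear to 10 and logarithmic above), with the metastasis library in red above the sham library in blue. Points are class sums, bars are exact 95% counting intervals, and open points are classes with fewer than 30 cells. Gbp2, Gbp7 and Irgm1 lie higher in neutrophils of metastasis blood than of sham blood, and Gbp4 and Iigp1 are at 0 there in both.

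In the order of levels over the 36 sums, most neighbours could not be told apart by their intervals. For Iigp1 the endothelial sum and the fibroblast sum of sham lung were each separated from the next by counting intervals, the fibroblast sum resting mainly on 1 cell. For Irgm1 the endothelial sum of sham lung alone was separated from the next, and for Gbp2 the fibroblast sum was. Wider intervals lower in the order overlapped both, those of sham lung fibroblasts for Irgm1 and of metastasis lung classical monocytes for Gbp2. For Gbp4 the lowest of the T cell and NK cell sums, 26.7 CPM in CD4 T cells of sham blood, was separated from the next sum below, B cells of metastasis blood at 14.0 CPM. The wider intervals of NK cells and CD4 T cells of metastasis blood overlapped that B cell sum. For the 9 genes summed, endothelial cells of sham lung stood apart from the next sum, and blood neutrophils of the metastasis library (149 CPM) from blood B cells of that library (117 CPM) below them. Blood B cells of the sham library (115 CPM) were also apart from the next sum, lung B cells of sham (103 CPM). The neutrophil and B cell steps are between neighbours only, since the wider intervals of lung non-classical monocytes lower down overlapped both.

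For metastasis against sham, 16 pairs of class and tissue had at least 30 cells in both libraries. A gene counted as measured with 100 or more UMIs over both libraries and a mean of 10 CPM or more, and as higher or lower when it differed by 1.5-fold or more with an interval that excluded equality. In 8 pairs at least 3 of the 9 genes were measured.

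The clearest difference was in CD8 T cells of the lung, where all 9 genes were measured, 4 were higher and 0 lower. Of all 7312 genes measured in these cells, 1.55% were higher and 0.752% lower. Gbp2 stood at 50.1 CPM (41.9 to 59.4) in metastasis and 25.2 CPM (22.1 to 28.5) in sham, a log2 ratio of 0.99 (0.68 to 1.30). Gbp5 stood at 19.0 CPM in metastasis and 8.49 CPM in sham, a log2 ratio of 1.16 (0.62 to 1.68). Iigp1 stood at 28.1 CPM in metastasis and 13.5 CPM in sham, a log2 ratio of 1.06 (0.63 to 1.48). Gbp3 stood at 14.4 CPM in metastasis and 8.08 CPM in sham, a log2 ratio of 0.84 (0.24 to 1.41). For each of these 4 genes the CPM intervals of the 2 libraries did not overlap.

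The other 5 genes did not reach 1.5-fold in lung CD8 T cells. Gbp4, Gbp7 and Gbp8 had log2 ratios of 0.46, 0.49 and 0.38 with intervals above 0, Irgm1 had 0.44 (-0.02 to 0.88), and Gbp9 had -0.32 (-0.90 to 0.23). The 9 genes together gave 267 CPM (248 to 288) in metastasis and 177 CPM (168 to 185) in sham, a log2 ratio of 0.60 (0.47 to 0.72). The median log2 ratio of the 9 was 0.49, beside 0.05 over all measured genes.

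No single cell carried the difference in Gbp2: the most in 1 cell was 8 of 132 UMIs in metastasis and 6 of 246 in sham. For Iigp1, 1 metastasis cell held 8 of the 74 UMIs, a spread that the CPM interval does not cover. Cells with a Gbp2 UMI made up 12.1% (9.94% to 14.6%) of the 800 CD8 T cells in metastasis and 8.70% (7.59% to 9.92%) of the 2332 in sham. For Gbp5 these shares were 5.38% (3.92% to 7.17%) and 3.04% (2.39% to 3.82%). Their intervals overlapped for Gbp3, at 4.75% (3.38% to 6.46%) and 3.17% (2.50% to 3.97%). They also overlapped for Iigp1, at 5.38% (3.92% to 7.17%) and 4.03% (3.27% to 4.91%). The sham cells were the deeper ones, with a median of 4072 UMIs against 3206.5 in metastasis. At a fixed 1000 UMIs per cell, 20.6% of 792 cells in metastasis and 15.004% of 2326 cells in sham would hold a UMI of any of the 9 genes. At all UMIs these shares were 47.5% in metastasis and 43.1% in sham. Barcodes of red cells, which should lack these genes, had 6.94% and 12.2% at 1000 UMIs in the metastasis and sham lung libraries.

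The CD8 T cells were divided, after the data had been seen, by how many of the 4 effector genes Ccl5, Nkg7, Il2rb and Cxcr3 were detected. Cells with 2 or more were 30.1% of CD8 T cells in metastasis lung and 39.0% in sham lung, and cells with none were 240 of 800 cells in metastasis and 517 of 2332 (22.2%) in sham. Detection was at all UMIs and rises with depth, and medians were 3206.5 UMIs in metastasis and 4072 in sham. The part of depth in these shares and groups was not tested. The summed level of the 9 genes was higher in metastasis in each of the 3 groups. It was 237 CPM in metastasis and 182 CPM in sham with 2 or more effector genes (log2 0.38, 0.16 to 0.60). It was 313 CPM and 178 CPM with exactly 1 (log2 0.82, 0.62 to 1.01), and 236 CPM and 162 CPM with none (log2 0.54, 0.26 to 0.82), metastasis before sham in both.

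Single genes did not follow the same order over these groups. Gbp2 stood at 71.4 CPM in metastasis and 21.8 CPM in sham among cells with exactly 1 effector gene (log2 1.71, 1.24 to 2.19). Among cells with none it stood at 24.6 CPM in metastasis and 23.5 CPM in sham (log2 0.07, -0.84 to 0.91). Gbp5 was at 16.8 CPM in metastasis and 6.08 CPM in sham among cells with 2 or more (log2 1.47, 0.44 to 2.44), and at 26.0 CPM in metastasis and 9.82 CPM in sham among cells with none (log2 1.41, 0.38 to 2.43). With exactly 1 it had a log2 ratio of 0.61 (-0.31 to 1.46). Whether the groups differ from each other was not tested.

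**Figure D4:**
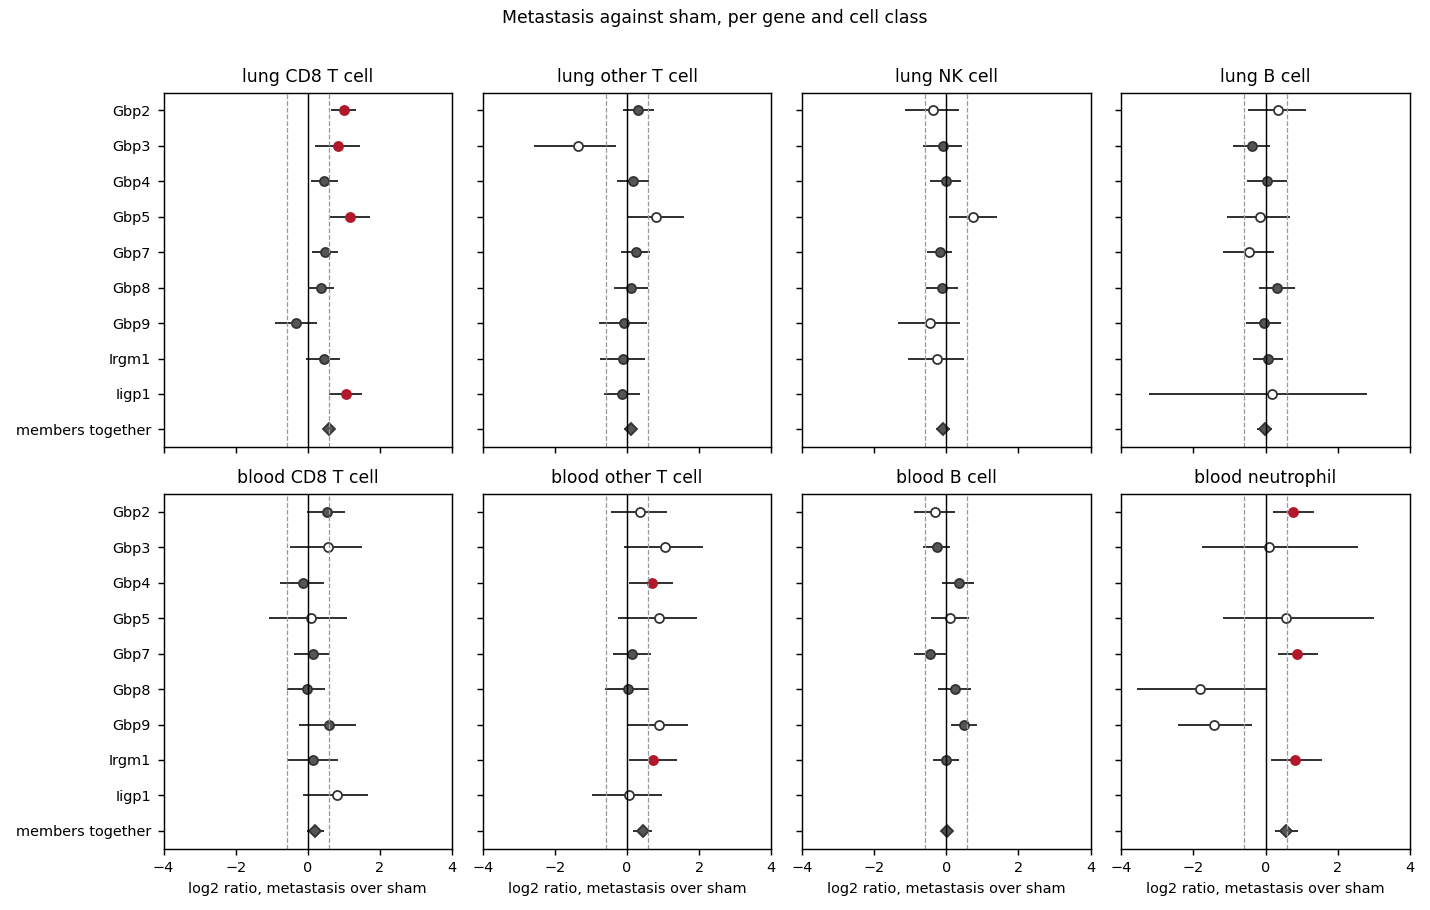
Log2 ratio of the level in metastasis over sham (x axis) for each of the 9 genes and their sum in the 8 pairs of class and tissue with at least 3 measured genes. Bars are exact 95% counting intervals, red points are genes 1.5-fold or more higher, grey points are measured genes that were not, open points are genes under the limits for a measured gene, diamonds are the 9 genes summed, and dashed lines mark 1.5-fold. A gene with no UMI in a library has no point. Lung CD8 T cells have 4 red points, blood neutrophils 3 and blood other T cells 2, and the remaining 5 panels have none.

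In other lung lymphocytes no measured gene of the 9 passed 1.5-fold in either direction. In B cells, where 5 were measured, the sum was 101 CPM in metastasis and 103 CPM in sham (log2 -0.02, -0.20 to 0.16), and 1.02% of all genes were higher and 0.474% lower. In NK cells, where 4 were measured, the sum was 236 CPM in metastasis and 254 CPM in sham (log2 -0.10, -0.27 to 0.07), with backgrounds of 1.2% higher and 1% lower. In T cells with both or neither of the CD4 and CD8 transcripts, called other T cells, 7 were measured and the sum was 212 CPM in metastasis and 198 CPM in sham (log2 0.10, -0.06 to 0.26). There 1.85% of all genes were higher and 0.963% lower.

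Some genes under the count limit still had intervals away from equality in these cells. In lung NK cells Gbp5 had a log2 ratio of 0.74 (0.09 to 1.39) on 87 UMIs in all, 38 in metastasis and 49 in sham. In other T cells Gbp5 had 0.81 (0.05 to 1.55), from 12.8 CPM in metastasis and 7.28 CPM in sham, while Gbp3 ran the other way, at 4.26 CPM and 10.8 CPM (log2 -1.35, -2.54 to -0.33). In lung CD4 T cells Gbp2 was at 39.4 CPM in metastasis and 19.4 CPM in sham, a log2 ratio of 1.02 (0.31 to 1.70) on 29 and 51 UMIs. Only Gbp4 was measured in lung CD4 T cells, at 36.7 CPM in metastasis and 28.98 CPM in sham.

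In blood CD8 T cells no measured gene was called at this depth. Of 6 measured genes 0 were higher and 0 lower, with backgrounds of 3.79% and 2.2%. Of the genes called higher in lung CD8 T cells, only Gbp2 was measured here. Gbp3, Gbp5 and Iigp1 were under the count limit and could not be called. Gbp2 was at 44.3 CPM in metastasis and 30.8 CPM in sham (log2 0.52, 0.01 to 1.00), under 1.5-fold. Iigp1 was at 15.4 CPM in metastasis and 8.81 CPM in sham (log2 0.81, -0.12 to 1.65). Gbp3 had a log2 ratio of 0.56 (-0.47 to 1.48) and Gbp5 0.08 (-1.05 to 1.05). The 9 genes summed gave 245 CPM in metastasis and 211 CPM in sham, a log2 ratio of 0.21 (0.01 to 0.41). Whether lung and blood differ was not tested.

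In other T cells of the blood, 4 genes were measured, 2 of them were higher and 0 lower, with backgrounds of 4.46% and 1.83%. Gbp4 stood at 43.1 CPM in metastasis and 26.9 CPM in sham (log2 0.68, 0.09 to 1.24). Irgm1 stood at 35.9 CPM in metastasis and 21.6 CPM in sham (log2 0.73, 0.08 to 1.35). Their intervals began just above equality, on 36 and 30 UMIs in metastasis, and either leaving out cells with platelet UMIs or cells over 5% haemoglobin left 1 gene higher in place of 2. Without cells that expressed 4 or more type I interferon genes, 1 gene was likewise higher and the summed log2 ratio was 0.77 (0.51 to 1.03), beside 0.43 (0.21 to 0.65) over all cells, from 260 CPM in metastasis and 192 CPM in sham.

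In blood neutrophils the 3 measured genes were all higher in metastasis. The count limit was set on UMIs pooled over 1994 cells in metastasis and 387 in sham. A gene higher in metastasis therefore passed it more easily, and the count of higher genes depends in part on the limit. Blood neutrophils also differed most between the arms in general, since 16.1% of their measured genes were higher and 18.6% lower. Gbp2 stood at 49.5 CPM (43.8 to 55.7) in metastasis and 29.4 CPM (20.5 to 40.9) in sham, a log2 ratio of 0.75 (0.24 to 1.30). Gbp7 stood at 53.8 CPM in metastasis and 29.4 CPM in sham (log2 0.87, 0.36 to 1.42). Irgm1 stood at 32.8 CPM in metastasis and 18.5 CPM in sham (log2 0.83, 0.19 to 1.54). Gbp9 and Gbp8, under the count limit, ran the other way. Gbp9 stood at 4.66 CPM in metastasis and 12.6 CPM in sham (log2 -1.43, -2.41 to -0.41). Gbp8 had a log2 ratio of -1.81 (-3.53 to -0.007) on 8 and 6 UMIs. Gbp3 and Gbp5, also under the limit, had intervals that included equality.

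The summed level in blood neutrophils was 149 CPM in metastasis and 100.04 CPM in sham (log2 0.57, 0.29 to 0.86). At 1000 UMIs per cell, 13.9% of neutrophils in metastasis and 7.82% in sham would hold a UMI of the 9 genes. Red-cell barcodes had 6.74% in metastasis blood and 9.17% in sham blood by that measure, so the share of sham neutrophils was not above that of red-cell barcodes, 74.4% of which held 3 or more leukocyte markers in sham blood. Some blood neutrophils carried platelet transcripts. Without cells that had a Pf4 or Ppbp UMI, which left 1215 cells (60.9%) in metastasis and 191 (49.4%) in sham, the sum had a log2 ratio of 0.48 (0.04 to 0.95), but 0 single genes were then called. Gbp2 had 0.50 (-0.24 to 1.34) there, Gbp7 0.72 (-0.07 to 1.62), and Irgm1 1.35 (0.08 to 3.01), by then under the count limit. Gbp8 and Gbp9, also under it, ran the other way there, at -2.79 (-5.21 to -0.36) and -1.89 (-3.32 to -0.33). Gbp3 and Gbp5 had 7 and 16 UMIs in metastasis and 0 in sham. Without cells that expressed 4 or more genes of the type I interferon list, Irgm1 had 2.15 (0.89 to 3.80).

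Lung neutrophils could not be compared with the same precision, since sham lung held 41 of them and 4 UMIs of the 9 genes. Their summed level was 72.6 CPM (61.8 to 84.8) in 1124 cells in metastasis and 44.7 CPM (12.2 to 114) in sham. Lung neutrophils of the metastasis arm were lower than blood neutrophils of that arm for Gbp2 (30.9 CPM in lung), Gbp7 (19.5 CPM) and Irgm1 (11.8 CPM), with intervals that did not overlap.

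In blood classical monocytes only Irgm1 was measured, with a log2 ratio of 0.00 (-0.48 to 0.48). Gbp3 had a log2 ratio of 0.80 (0.16 to 1.45) on 90 UMIs in all, 56 in metastasis and 34 in sham, and Gbp5 had 1.52 (0.20 to 3.01) on 19 and 7 UMIs. Gbp2 had 0.12 (-0.60 to 0.83), Gbp7 0.38 (-0.27 to 1.04) and Gbp9 0.75 (-1.04 to 2.71), while Gbp4, Gbp8 and Iigp1 had 5 UMIs or fewer in either library. The sum was 203 CPM in metastasis and 158 CPM in sham (log2 0.36, 0.09 to 0.64). It ranged with the gate: without cells with platelet UMIs its log2 ratio was 0.79 (0.33 to 1.26), and with no limit on markers of a second class it was 0.09 (-0.10 to 0.28). Irgm1 had 0.62 (-0.31 to 1.61) without cells with platelet UMIs and -0.62 (-2.02 to 0.75) without cells with 4 or more type I interferon genes. When monocytes of either kind were taken as 1 class, a grouping added after the data had been seen, Gbp3 was at 43.1 CPM in metastasis and 18.7 CPM in sham (log2 1.21, 0.67 to 1.76). Gbp7 was then at 33.1 CPM in metastasis and 17.5 CPM in sham (log2 0.92, 0.35 to 1.51), on 280 cells in metastasis and 323 in sham. Gbp5 had a log2 ratio of 1.63 (0.61 to 2.74) on 28 and 12 UMIs. Intervals of the other genes included equality: Gbp2 had 0.13 (-0.42 to 0.68), Irgm1 0.08 (-0.33 to 0.49), Gbp8 -0.52 (-1.79 to 0.66) and Gbp9 -0.24 (-1.24 to 0.72). Gbp4 and Iigp1 had 3 UMIs or fewer in either library. The mix in this class differed between the arms: the stricter gate held 167 classical and 26 non-classical monocytes in metastasis, and 147 and 75 in sham. The part of that mix in these values was not tested. The same grouping in lung held 310 cells in metastasis and 126 in sham. There Gbp3 had 0.51 (-0.58 to 1.76), Gbp7 0.17 (-0.97 to 1.45) and the sum 0.37 (-0.08 to 0.84).

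Blood B cells, the largest class, differed little between the arms. Of 6 measured genes 0 were higher and 0 lower, with backgrounds of 1.26% and 0.755%. The sum was 117 CPM (107 to 127) in metastasis and 115 CPM (111 to 119) in sham, a log2 ratio of 0.02 (-0.12 to 0.16). Gbp9 had the highest log2 ratio of the measured genes, 0.50 (0.15 to 0.84), and Gbp7 the lowest, -0.45 (-0.88 to -0.04).

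Among lung lymphocytes, cells with UMIs of exactly 1 of these genes outnumbered cells with more, a count that depends on depth. In lung CD8 T cells 30.1% of cells in metastasis and 29.5% in sham had UMIs of exactly 1 of the 9 genes, and 5.25% and 4.25% had 3 or more. In lung B cells 0.105% in metastasis and 0.267% in sham had 3 or more. In blood classical monocytes 11.4% in metastasis and 6.80% in sham had 3 or more. There 30.5% of metastasis cells had exactly 1 and 21.6% exactly 2, so cells with 1 gene were not the larger part of those with a UMI. In endothelial cells of sham lung 24.1% had exactly 1, 11.1% exactly 2 and 14.8% had 3 or more. Cells that expressed 4 or more genes of the type I interferon list held part of these UMIs. They were 11.1% of lung CD8 T cells in metastasis and 13.7% in sham, and held 25.7% and 27.5% of the UMIs of the 9 genes there. In blood classical monocytes they were 71.3% of cells in metastasis and 78.2% in sham.

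**Figure D5:**
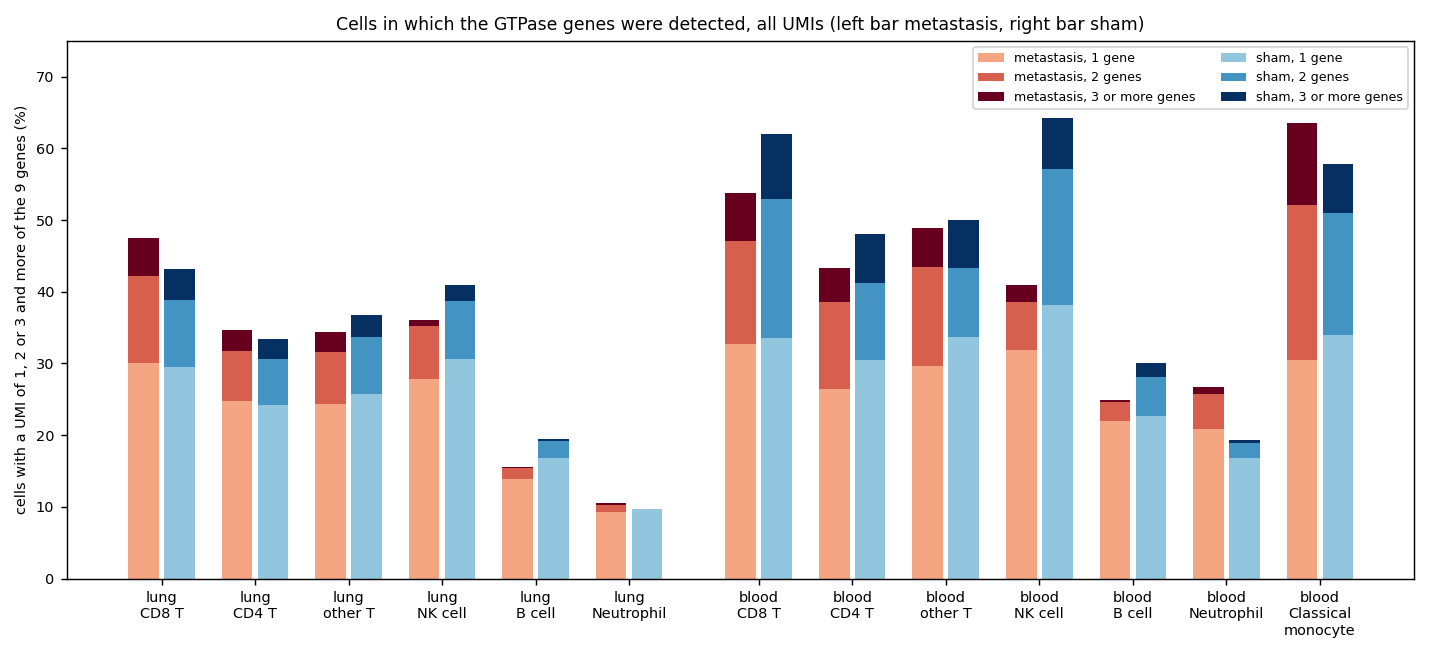
Share of cells (y axis, %) with a UMI of exactly 1, exactly 2, or 3 and more of the 9 genes, stacked, for each class in lung and blood; the left bar of each pair (reds) is metastasis and the right bar (blues) sham. Shares are at all UMIs, and the sham cells were deeper in most classes. Lung CD8 T cells reach 47.5% in metastasis and 43.1% in sham, and blood NK cells 40.9% in metastasis and 64.3% in sham.

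Red-cell barcodes were read beside these shares as a measure of RNA from outside the cell. Such barcodes, with at least 50% haemoglobin, had a UMI of the 9 genes in 4.74% of cases in metastasis lung and 17.1% in sham lung, at median depths of 744 and 1514.5 UMIs without haemoglobin. In blood these were 4.40% in metastasis and 20.5% in sham, at 737 and 2977 UMIs. Many sham barcodes of this kind held leukocyte RNA: 69.1% in lung and 74.4% in blood had 3 or more markers of a class, against 15.2% and 14.7% in the metastasis libraries. Summed over red-cell barcodes, the 9 genes were at 68.6 CPM in metastasis lung and 139 CPM in sham lung. At 1000 UMIs lung B cells were at 9.19% in metastasis and 9.33% in sham, and in sham lung that share was not above that of red-cell barcodes. Lung neutrophils, at 6.74% in metastasis and 5.45% in sham, lay below the red-cell share of both lung libraries. Epithelial cells had 2.34% in metastasis and 1.28% in sham at all UMIs, with median depths of 3414 and 2147. Gbp4 had no UMI in neutrophils of sham blood and 24 in red-cell barcodes of that library, so the sham red-cell shares are not a floor for every class.

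The rest of the family and the interferon lists were set beside the 9 genes. Of 10 further guanylate-binding and immunity-related GTPase genes, 9 had a row in the files. In lung CD8 T cells 6 of these were measured, and 1 was higher and 0 lower, beside 1.55% and 0.752% of all measured genes. That gene was Irgm2, a regulatory GTPase like Irgm1, at 37.9 CPM in metastasis and 24.9 CPM in sham (log2 0.61, 0.25 to 0.95), and its span overlaps that of Igtp. Ifi47 (log2 0.28, 0.07 to 0.48) and Igtp (0.24, -0.04 to 0.52) lay under 1.5-fold. In blood neutrophils, where 16.1% of all measured genes were higher, 1 of 2 measured was higher. It was again Irgm2, at 33.2 CPM in metastasis and 21.02 CPM in sham (log2 0.66, 0.05 to 1.32), while Igtp had a log2 ratio of -0.07 (-0.76 to 0.69).

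Of the interferon gamma signalling and response genes none passed 1.5-fold in lung CD8 T cells. Of 25 listed, 17 were measured, 0 higher and 0 lower, and the median of their log2 ratios was 0.15. Irf1, a factor that drives many of these genes, was at 155 CPM in metastasis and 131 CPM in sham (log2 0.24, 0.08 to 0.41). The receptor chains Ifngr1 and Ifngr2 had log2 ratios of -0.05 and -0.04, the feedback inhibitor Socs1 0.33 (0.13 to 0.52) and the MHC class I activator Nlrc5 0.13 (-0.05 to 0.31). Of 25 type I interferon response genes, 24 had a row in the files and 15 were measured, 1 was higher (Ifit1bl1) and 0 lower, with a median of 0.12. The transcript of interferon gamma itself, Ifng, was at 146 CPM in lung NK cells in metastasis and 73.0 CPM in sham, a log2 ratio of 1.00 (0.75 to 1.25). In lung CD8 T cells Ifng had 17 UMIs in metastasis and 23 in sham, under the count limit (log2 1.46, 0.46 to 2.42).

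In blood neutrophils more type I interferon response genes were lower than higher. Of 16 measured type I response genes, 1 was higher (Zbp1) and 9 lower (Isg15, Ifit1, Ifit3, Rsad2, Oasl1, Usp18, Ifi27l2a, Rtp4 and Ddx58), and the median of their log2 ratios was -0.71, beside -0.06 over all measured genes. Of 15 measured interferon gamma genes, 2 were higher (Stat2 and Nlrc5) and 2 lower (Ifngr2 and Jak2). Over all measured genes in blood neutrophils 16.1% were higher and 18.6% lower. Irf1 was at 319 CPM in metastasis and 275 CPM in sham (log2 0.21, 0.04 to 0.39). In blood classical monocytes Irf1 was higher, at 122 CPM in metastasis and 51.3 CPM in sham (log2 1.25, 0.82 to 1.70). In other T cells of the lung it was also higher, at 187 CPM in metastasis and 123 CPM in sham (log2 0.60, 0.42 to 0.78).

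In the other 6 pairs these lists gave few calls and none among the further GTPase genes. Over all measured genes of these pairs, 1.02% (lung B cells) to 4.46% (blood other T cells) were higher. From 0.474% (lung B cells) to 2.2% (blood CD8 T cells) were lower. Of the interferon gamma list, 2 of 20 measured genes were higher in lung B cells (Nlrc5 and Serpina3g), 1 of 18 in lung NK cells (Ifng), 1 of 17 in lung other T cells (Irf1), 0 of 19 in blood B cells, 2 of 17 in blood CD8 T cells (Socs1 and Wars) and 1 of 14 in blood other T cells (Socs1). Of the type I list, 1 of 12 was higher in lung B cells (Oasl1), 1 of 9 in lung NK cells (Usp18), 0 of 13 in lung other T cells, 1 of 12 in blood B cells and 1 of 12 in blood CD8 T cells (Rsad2 in both), and 0 of 8 in blood other T cells. The single gene of either list that was lower in these 6 pairs was Irf7, in lung NK cells. Among classes with fewer than 3 measured genes of the 9, Nlrc5 was higher in blood CD4 T cells (log2 0.79, 0.19 to 1.35) and Irf8 in blood NK cells (log2 0.85, 0.49 to 1.20). In lung neutrophils, of which sham lung held 41, Ifngr2 was higher and Jak2, Isg15 and Ifi27l2a were lower. In blood platelets Igtp was lower, at 402 CPM in metastasis and 841 CPM in sham (log2 -1.06, -1.60 to -0.55). Classes with fewer than 3 measured genes of the 9 had no share over all measured genes to set beside these calls.

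The genes with the most similar pattern over the 36 sums were found for members with a mean of 20 CPM or more, among genes with that mean, by Pearson r on log2 of CPM plus 5. For Gbp2 they were Socs3 (r = 0.88), Irf1 (0.88), Junb (0.82), Ier2 (0.82) and Arl15 (0.81). For Irgm1 the first was Stat2 (0.82), for Gbp8 H2-Q7 (0.93), for Gbp7 Vps28 (0.81) and for Iigp1 Igfbp4 (0.89), followed by Ly6c1 (0.86). The sums share libraries and cell classes, so these values are descriptions. Gbp3, Gbp4, Gbp5 and Gbp9 fell under the minimum level and were not searched.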

How the data were processed

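The genome build GRCm38.p6 and the tools Cell Ranger 7.0.0, R 4.3.1 and Seurat 4.3.0.1 are named in the submitters' processing notes. The deposited values are UMI counts per gene and barcode made by the authors, with no cell annotation, so cells were classed here. Barcodes were kept with 200 or more genes and 10% or less mitochondrial UMIs (13363 in metastasis lung, 14132 in sham lung, 8597 in metastasis blood and 13029 in sham blood). Barcodes with 50% or more haemoglobin were set apart as red cells. Likely doublets, with a Scrublet score above 0.3, were removed: 396, 704, 111 and 742 in the same order. The automatic Scrublet threshold would have marked 0.61%, 3.36%, 0.42% and 2.06%, so it was not used. Cells were placed by 14 marker lists, and T cells were divided by Cd4, Cd8a and Cd8b1. Counts were summed per class and library and divided by UMIs without haemoglobin.

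With 1 library per group no test was made. Intervals are exact 95% ones: Poisson for levels, conditional binomial for ratios, Clopper-Pearson for shares. They cover counting error only. The members, lists and gates were chosen with earlier results of these data known. By the naming rule the members are named, and genes of the other lists where called 1.5-fold or more apart. 1 item is not reported here. Shares at 1000 UMIs are expected values under thinning, with shallower cells left out. Another fold, filter, gate, scaling and cell filter were tried. The ratio code was checked on simulated counts. Software was Python 3.11.15, numpy 2.4.6, scipy 1.17.1, pandas 2.3.3, scanpy 1.11.5 and matplotlib 3.10.9.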

Additional observations from a re-analysis of the deposited data

How the results depend on the processing

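No paired analysis was possible because each group has 1 library, and for the same reason no replicate could be left out. In lung CD8 T cells the summed log2 ratio lay between 0.55 and 0.68 over all settings, and 2 genes were higher at a 2-fold limit in place of 4. In blood neutrophils 0 genes were higher at that limit or without cells with platelet UMIs, and the mean of each cell's CPM gave a summed ratio of 0.92. In blood other T cells 1 gene was higher in place of 2 without cells over 5% haemoglobin, without platelet UMIs or without cells with 4 type I interferon genes, and 0 at 2-fold. The summed ratio there was 0.77 without the type I cells. In blood B cells it was 0.19 without the type I cells and 0.18 by the mean of each cell's CPM, and without the type I cells 1 gene was higher in blood B cells and 1 in lung other T cells. Gbp7 in blood B cells turned positive, at 0.0843 without the type I cells and 0.17 by the mean of CPM. The share ratio there was 0.18 at 1000 UMIs, against a negative one at all UMIs. The settings on type I cells were chosen after seeing the data. Without a filter on low counts, more of all genes were called. In lung, 358 were higher and 144 lower in B cells in place of 80 and 37, 403 and 158 in CD8 T cells in place of 113 and 55, 236 and 163 in NK cells in place of 77 and 64, and 416 and 164 in other T cells in place of 125 and 65. In blood, 493 were higher and 243 lower in B cells in place of 97 and 58, 527 higher in CD8 T cells in place of 237, 1496 lower in neutrophils in place of 952, and 541 higher and 162 lower in other T cells in place of 219 and 90. The cause of these changes was not tested. Depth limits classes with few cells in sham, above all lung neutrophils.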
